A study of Mus musculus with 24 samples.

Results

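The S100 proteins are a family of small calcium-binding proteins, and 10 of their genes are described here in mouse melanoma and myeloid cell lines: S100b, S100a1, S100a4, S100a6, S100a8, S100a9, S100a10, S100a11, S100a13 and S100a16. They were chosen by name, with earlier results of these data known, as the symbols given by the RefSeq transcript of each array probe. They are 10 of the 45547 gene and transcript names on the array and have 12 probes, with 1 probe for each gene except S100a10 and S100a16, which have 2. RNA was measured on 24 single-colour arrays of 7 lines. B16F1 is a mouse melanoma line, and all melanoma lines carry GFP, green fluorescent protein, in their names. B16F1-GFP-M (M, 3 arrays) is the parental line, B16F1-GFP-D (D, 4 arrays) was recovered after long dormancy in a syngeneic mouse vaccinated with irradiated cells, and B16F1-GFP-DB#1, DB#2 and DB#3 (4, 3 and 3 arrays) are a following generation from a brain site. M0 (4 arrays) and J365 (3 arrays) are labelled as myeloid cells, and their titles carry the tag p20, which the labels do not explain. The labels also do not say how M0 and J365 correspond to the study's parental and dormant leukemia lines. All melanoma lines were cultured in medium with serum, so every melanoma array shows cells that had grown in vitro. Each name stands for 1 line. No label says that the arrays of a line came from separate cultures, so p-values measure the spread between these arrays, which may be technical.

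Most S100 proteins, though not all, bind calcium through paired EF-hand motifs, and they usually act as dimers. In the members that bind calcium, its binding opens a surface to which target proteins attach. Targets of the family include annexins, the heavy chain of non-muscle myosin and p53. Some members also leave the cell and bind receptors, among them RAGE (Ager) and Tlr4. S100b is a classical marker of melanocytes, melanoma, Schwann cells and astrocytes, S100a8 and S100a9 together form calprotectin of neutrophils and monocytes, and S100a4 and S100a6 are expressed by many motile cells. Most of the genes form a cluster on mouse chromosome 3, and S100b lies apart on chromosome 10.

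The bases before the start of S100b and S100a6 are shown because these genes had the largest differences among the melanoma lines. RefSeq held windows for 9 of the 10 genes on GRCm38.p6 (10 windows, as S100a16 has 2), and S100a10 had none in the table. In the sequences below, the 250 bases before the annotated start run 5' to 3' on the gene's strand, and capitals mark matches to any of 6 motifs, searched on both strands: TATAAA, the AP-1 site TGANTCA, the E-boxes CACGTG and CATGTG, the SOX core ACAAAG and CCAAT. S100b occupies the plus strand at chr10:76253586-76253835 and S100a6 the plus strand at chr3:90612644-90612893. The bases between the starts of S100a1 (minus strand) and S100a13 (plus strand), at chr3:90514331-90514434, are shown on the plus strand because these genes are transcribed away from each other from starts 104 bases apart.
S100b: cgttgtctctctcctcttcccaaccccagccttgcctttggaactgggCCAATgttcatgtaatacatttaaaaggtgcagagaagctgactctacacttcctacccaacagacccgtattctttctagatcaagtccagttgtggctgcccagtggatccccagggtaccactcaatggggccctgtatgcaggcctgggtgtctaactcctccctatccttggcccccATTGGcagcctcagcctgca
S100a6: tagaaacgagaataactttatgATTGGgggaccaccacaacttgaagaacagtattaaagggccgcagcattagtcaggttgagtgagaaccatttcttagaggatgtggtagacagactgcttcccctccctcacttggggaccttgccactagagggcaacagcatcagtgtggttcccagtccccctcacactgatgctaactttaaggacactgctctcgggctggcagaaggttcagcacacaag
S100a1 to S100a13: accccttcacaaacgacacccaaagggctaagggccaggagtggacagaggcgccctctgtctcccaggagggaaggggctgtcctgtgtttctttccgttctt

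CCAAT was matched at 2 places before S100b, from -202 to -198 and, on the other strand, from -20 to -16 relative to the start. It was matched at 1 place before S100a6, from -228 to -224 on the other strand. CCAAT occurs in 33.8% of the 32851 windows of this length in the table. None of the other motifs was matched in these windows, and the interval between S100a1 and S100a13 held no match to any of the 6. TATAAA, found in 12.4% of all windows, was matched from -31 to -26 before S100a4 and from -30 to -25 before S100a8. S100a11 held 2 matches to the AP-1 site, which 6.75% of all windows hold, and 1 to CACGTG, which 6.02% hold. The second window of S100a16 held the AP-1 site from -192 to -186 and CATGTG from -240 to -235. CATGTG, found in 12.3% of all windows, was also matched before S100a8, from -130 to -125 on the other strand. These matches are descriptions of letters and do not show a bound factor.

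Levels below are normalized log2 signals, that is log2 intensities after the 75th percentile of the same array was subtracted. A negative value is therefore a signal under that percentile, and levels are compared between lines for 1 probe at a time, not between genes. A gene is called well above background by the scanner software's own mark. Between 43.6% and 53.8% of probes carried that mark on 23 arrays, with the lowest share on D replicate 1, and 89.9% did on D replicate 3. The 10 melanocyte markers averaged 5.85 to 6.93 per melanoma array, with 10 of 10 well above background, and -4.83 to -4.52 per myeloid array, with 3 or 4 of 10. The 10 blood cell markers averaged 1.62 to 2.57 per myeloid array, with 10 of 10 well above background, and -5.06 to -2.65 per melanoma array, with 2 to 8 of 10. Each array thus carried the markers of its labelled cell type.

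The first question was whether the S100 genes differ between the dormant line and its parent. In D, S100a6 was higher and S100b and S100a1 were lower than in M, by 12.7-fold (95% confidence interval 4.89 to 33.0), 2.85-fold (1.96 to 4.15) and 2.05-fold (1.49 to 2.82). Of the 8 genes tested, 3 were called by limma at an adjusted p under 0.05, against 2.97% of the 20145 genes tested. Because the list was chosen with earlier results known, this share and the later ones describe the list and do not test the family. One gene passed upwards and a pair downwards, where 1.38% and 1.59% of all genes passed. Without scaling between arrays, 407 of 547 called genes were higher in D, against 278 of 598 here, and S100a1 did not pass (limma adjusted p = 0.0933). The other 5 tested genes, S100a4, S100a10, S100a11, S100a13 and S100a16, did not pass, and S100a8 and S100a9 were not tested because no line compared had them well above background on every array. The median difference of the 8 was -0.13 on the log2 scale, against -0.01 over all genes tested.

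**Figure D1:**
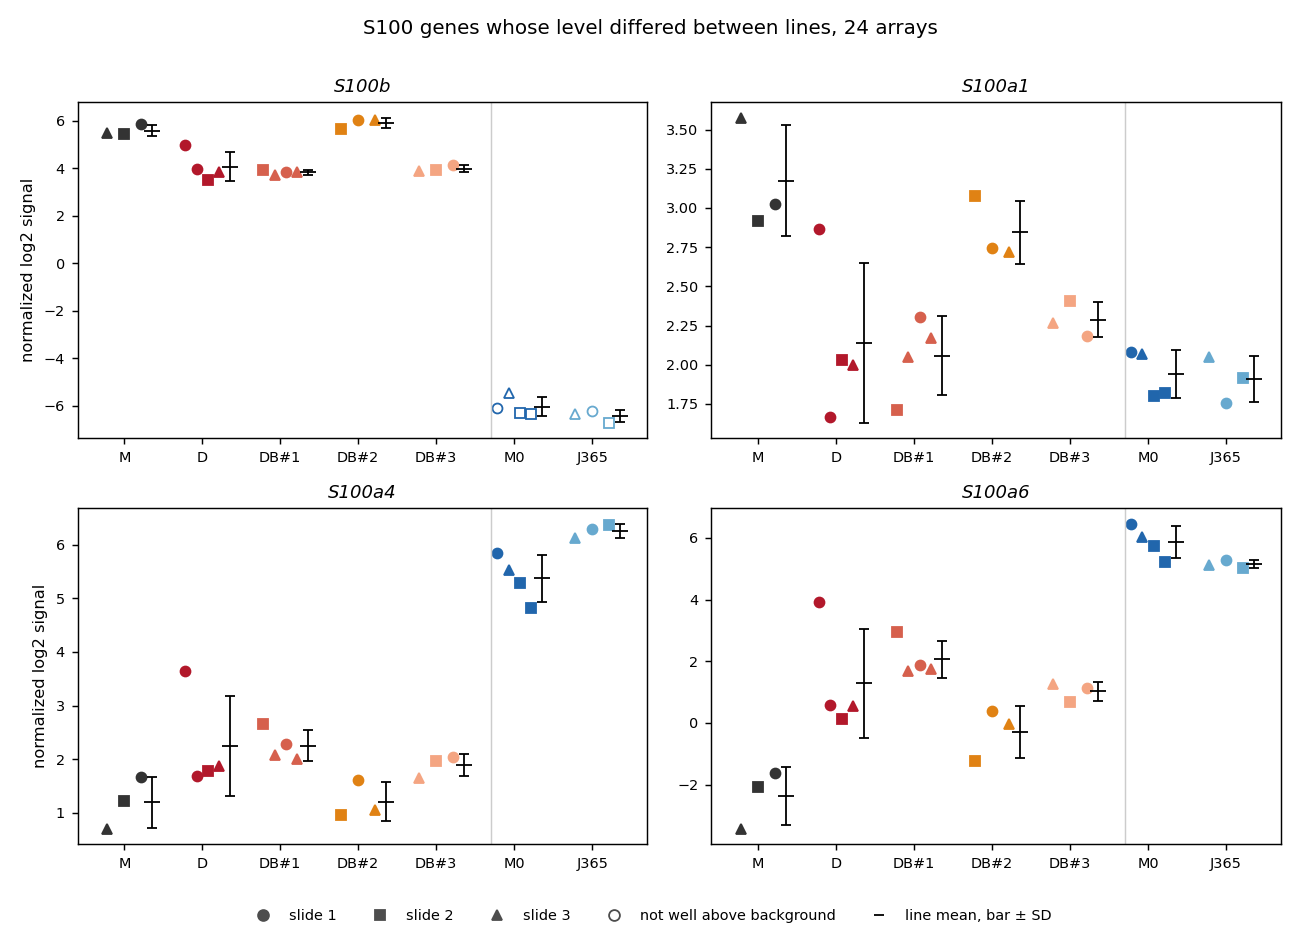
Normalized log2 signal (y axis) of S100b, S100a1, S100a4 and S100a6 on each of the 24 arrays, by line (x axis); symbols give the slide, open symbols a signal not well above background, and the black mark and bar the line's mean ± SD. S100b lies between 5.43 and 6.05 in M and DB#2 and between 3.51 and 4.97 in D, DB#1 and DB#3, while S100a6 is lowest in M and highest in the myeloid lines.

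S100b, whose product regulates tubulin, p53 and other targets in cells of neural crest origin, gave signals of 5.46, 5.43 and 5.86 in M. In D the signals were 4.97, 3.97, 3.51 and 3.84. In DB#1 they were 3.94, 3.70, 3.83 and 3.86, and in DB#3 3.87, 3.92 and 4.14. In DB#2 they were 5.67, 6.05 and 6.04. All arrays of D, DB#1 and DB#3 thus lay below all arrays of M and DB#2. The order of the line means was DB#2 (5.92 ± 0.21, SD, n = 3), M (5.58 ± 0.24, n = 3), D (4.07 ± 0.63, n = 4), DB#3 (3.98 ± 0.14, n = 3) and DB#1 (3.83 ± 0.10, n = 4). D, DB#3 and DB#1 had overlapping ranges, as had DB#2 and M.

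The difference of S100b from M was -1.51 ± 0.26 in D (log2, standard error, limma adjusted p = 0.00127). It was -1.75 ± 0.26 in DB#1 (limma adjusted p = 0.000156) and -1.61 ± 0.28 in DB#3 (limma adjusted p = 0.0011). In DB#2 it was 0.33 ± 0.28, which did not pass (limma adjusted p = 0.81). These comparisons share the M arrays. Within the 3 slides, D minus M was -1.39, -1.92 and -1.63. Of the 10 melanocyte markers 0 were called between D and M, where 2.97% of all genes were, and their median difference was -0.15. Among the 4 Schwann cell and glia markers, cell types that also express S100b, 0 of 2 tested were called in D. In DB#1 and DB#3 1 of 3 was, Ngfr, at least 1.78-fold and 1.30-fold higher than in M, where it was not well above background. Of the 10 blood markers, only 3 or 4 were tested in each comparison with M, so their counts say little. In D 1 of 3 tested was lower (Coro1a, -1.55 ± 0.42, limma adjusted p = 0.0464) and in DB#1 2 of 3 were. In DB#2 1 of 4 tested was lower than in M, as was 1 of 4 in DB#3. Of all genes, 3.69% were called in DB#1, 3.44% in DB#2 and 2.76% in DB#3. The part of these markers in the S100 differences was not tested. The study's own text lists S100B among the proteins downregulated in D, and reports a deletion of its gene in D and not in M. The part of that deletion in the RNA difference was not tested. As S100b was already named for these lines, its call here is not independent evidence.

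S100a1, known for binding the ryanodine receptor and the calcium pump in muscle, gave 3.58, 2.92 and 3.03 in M. It gave 2.87, 1.67, 2.03 and 2.00 in D, each below the lowest array of M. The signals were 1.71, 2.05, 2.30 and 2.17 for DB#1 and 2.27, 2.41 and 2.18 for DB#3. DB#2 stood higher, with 3.08, 2.74 and 2.72. The ranges of M and DB#2 overlapped, while DB#1 and DB#3 lay below both. The difference from M was -1.03 ± 0.22 in D (limma adjusted p = 0.00938) and -1.12 ± 0.22 in DB#1 (limma adjusted p = 0.00358). It was -0.89 ± 0.24 in DB#3 (limma adjusted p = 0.0472) and -0.33 ± 0.24 in DB#2 (limma adjusted p = 0.734). Without M replicate 1, the highest array, the difference in D was -0.83 and did not pass (limma adjusted p = 0.0957). The call in DB#3 was lost when any one array of either line was left out, with adjusted p-values of 0.0532 to 0.274.

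S100a13, whose start faces away from that of S100a1 and whose product takes part in the release of Fgf1 and Il1a, did not pass in any comparison. Its signals were 1.93, 2.20 and 2.67 in M and 2.57, 1.80, 1.27 and 1.64 in D, which overlap. D minus M was -0.45, with a confidence interval of -0.99 to 0.10 (limma adjusted p = 0.588). Whether the differences of S100a1 and S100a13 differ from each other was not tested.

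S100a6, also called calcyclin, binds annexins and the calcyclin-binding protein Cacybp. It had the largest spread of line means among the 10 genes in the melanoma lines, 4.44 on the log2 scale. Its signals were -3.43, -2.07 and -1.63 in M, the lowest of any line. They were 3.92, 0.57, 0.13 and 0.54 in D, 2.95, 1.67, 1.88 and 1.75 in DB#1 and 1.25, 0.68 and 1.13 in DB#3. DB#2, with -1.23, 0.40 and -0.05, lay between M and DB#1, and its highest array exceeded the lowest of D. The line means in ascending order were -2.38 ± 0.94 (SD, n = 3) in M, -0.29 ± 0.84 (n = 3) in DB#2, 1.02 ± 0.30 (n = 3) in DB#3, 1.29 ± 1.76 (n = 4) in D and 2.06 ± 0.60 (n = 4) in DB#1. Every array of the other melanoma lines was above every array of M.

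The difference of S100a6 from M was 3.67 ± 0.66 in D (limma adjusted p = 0.00201), 4.44 ± 0.66 in DB#1 (limma adjusted p = 0.000158) and 3.40 ± 0.71 in DB#3 (limma adjusted p = 0.00665). In DB#2 it was 2.09 ± 0.71, which did not pass (limma adjusted p = 0.143). Without M replicate 1, the lowest array, the difference in DB#3 was 2.88 and did not pass (limma adjusted p = 0.0626), while that in D was 3.14 and did (limma adjusted p = 0.0262). Within the slides, D minus M was 3.88, 2.20 and 3.97. D replicate 1 stood far above the other D arrays for S100a6, and it was also the highest D array for S100b, S100a1, S100a4, S100a10, S100a11 and S100a13. Without it, the differences of D from M were 2.79 for S100a6 (limma adjusted p = 0.000588), -1.81 for S100b (limma adjusted p = 1.42e-05) and -1.28 for S100a1 (limma adjusted p = 0.000187), so all 3 genes stayed called. When only the 7 arrays of D and M entered the model, none of the 3 passed, with adjusted p-values of 0.154 for S100b, 0.199 for S100a6 and 0.37 for S100a1 at the same differences. The calls in D thus depend on the spread estimated over all lines. D replicate 3, with 89.9% of probes well above background, was the lowest D array for S100b, S100a6, S100a10, S100a11 and S100a13. The 75th percentile subtracted from it was an intensity of 574, against 345 to 402 on the other D arrays. Before that subtraction its S100b intensity, 6521, was above those of D replicates 2 and 4 (5708 and 5754).

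S100a4, also called metastasin, binds non-muscle myosin and is a known marker of motile and mesenchymal cells. Its signals were 0.70, 1.22 and 1.66 in M and 3.65, 1.70, 1.78 and 1.88 in D. They were 2.66, 2.08, 2.28 and 2.00 in DB#1, 1.65, 1.97 and 2.05 in DB#3 and 0.95, 1.62 and 1.05 in DB#2. D and DB#1 lay above every M array, by little in 3 of the 4 D arrays, and DB#2 lay within the range of M. The difference of S100a4 from M was 1.05 ± 0.36 in D and 1.06 ± 0.36 in DB#1 and did not pass in either (limma adjusted p = 0.165 and 0.145). In DB#3 it was 0.69 ± 0.39 and in DB#2 0.01 ± 0.39, and neither passed (limma adjusted p = 0.663 and 1).

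**Figure D2:**
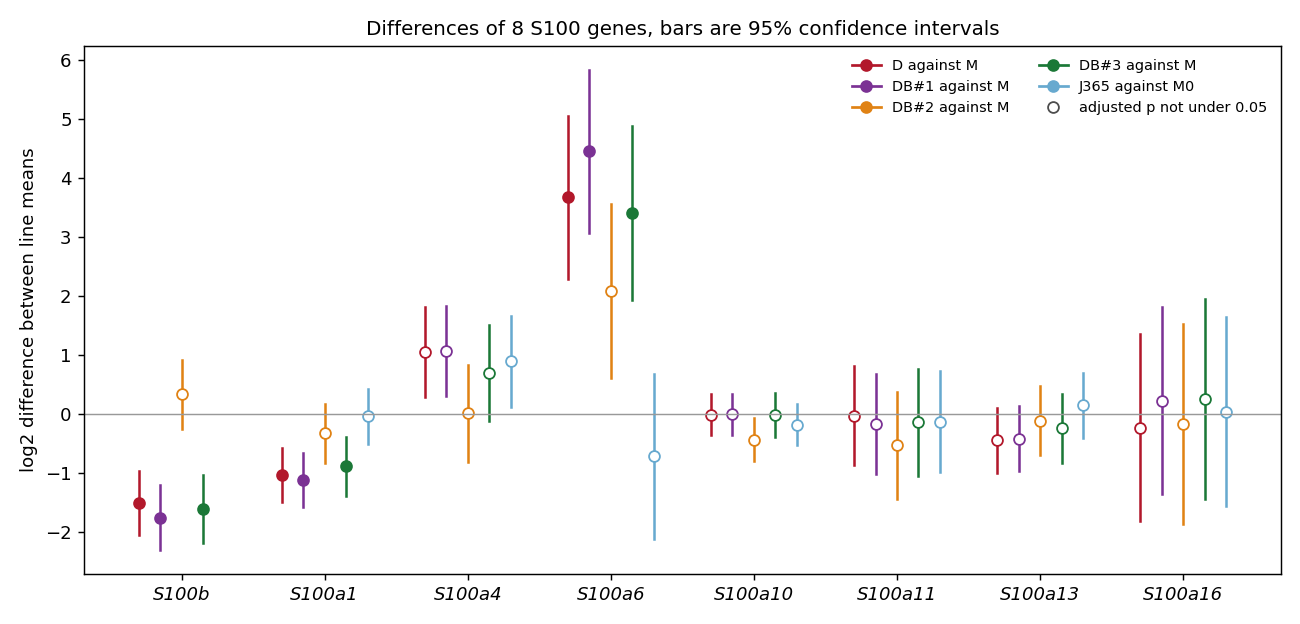
Log2 difference between line means (y axis) of 8 S100 genes (x axis) for 4 melanoma lines against M, which share the M arrays, and for J365 against M0; bars are 95% confidence intervals and filled symbols have a limma adjusted p under 0.05. S100a6 lies at 3.40 to 4.44 in D, DB#1 and DB#3, S100b and S100a1 lie below 0 in the same lines, and no gene is filled in DB#2 or J365.

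The brain-derived lines were set against M and against D to ask whether they kept the levels of the dormant line. Against M, 3 of 8 genes were called in DB#1, where 3.69% of all genes were. In DB#3 3 of 8 were called, against 2.76% of all genes. In both lines these were S100b, S100a1 and S100a6, in the directions seen in D. In DB#2 none of 8 was called by limma at the adjusted p, against 3.44% of all genes, and S100a6 and S100a10 had an unadjusted p of 0.00794 and 0.0241. Against D, none of 8 was called in DB#1 (0.475% of all genes) or in DB#3 (0.369%), and no unadjusted p was under 0.218. The confidence interval of DB#1 minus D was -0.74 to 0.26 for S100b and -0.50 to 2.05 for S100a6, so a difference of several-fold in S100a6 lies within it.

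DB#2 differed from D in 1 of 8 genes, against 6.34% of all genes. S100b was 3.60-fold higher in DB#2 (log2 difference 1.85 ± 0.26, limma adjusted p = 8.09e-05), and within the slides the difference was 1.57, 2.17 and 2.20. S100a6 was at -1.58 ± 0.66, S100a4 at -1.04 ± 0.36 and S100a1 at 0.71 ± 0.22 in DB#2 minus D, and none of these passed (limma adjusted p = 0.198, 0.103 and 0.0635). S100a1 did pass with slide as a block (0.71, limma adjusted p = 0.0458) and without D replicate 1 (0.95, limma adjusted p = 0.00219). With quantile normalization S100a4 (-1.07, limma adjusted p = 0.041) and S100a10 (-0.51, limma adjusted p = 0.0112) passed. Within the slides, DB#2 minus D was 0.48, 1.05 and 0.72 for S100a1 and -1.05, -0.82 and -0.83 for S100a4. Over the 5 melanoma lines as a whole, limma's F-test called S100b (adjusted p = 7.89e-06), S100a6 (0.000817) and S100a1 (0.00593). These are 3 of 8 tested, against 7.19% of the 21455 genes tested, and S100a4 did not pass (adjusted p = 0.129).

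S100a10 and S100a11 are annexin partners, S100a10 bound to Anxa2 at the cell membrane and S100a11 to Anxa1. S100a10 ranged from 4.11 to 4.77 over M, D, DB#1 and DB#3 together. In DB#2 it gave 3.99, 3.96 and 4.03, below all other melanoma arrays. The difference from M was -0.43 ± 0.18 and did not pass (limma adjusted p = 0.281), but it passed with quantile normalization (-0.51, adjusted p = 0.0316). The dimmer probe of S100a10 had means of 2.58 ± 0.13 (SD, n = 3) in M and 2.16 ± 0.09 (n = 3) in DB#2. S100a11 ranged from 1.66 to 3.76 over the 17 melanoma arrays, with D replicate 1 at the top and the other D arrays at 2.39, 1.71 and 1.82. Its difference from M lay between -0.53 and -0.02 in the other melanoma lines and passed in none.

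**Figure D3:**
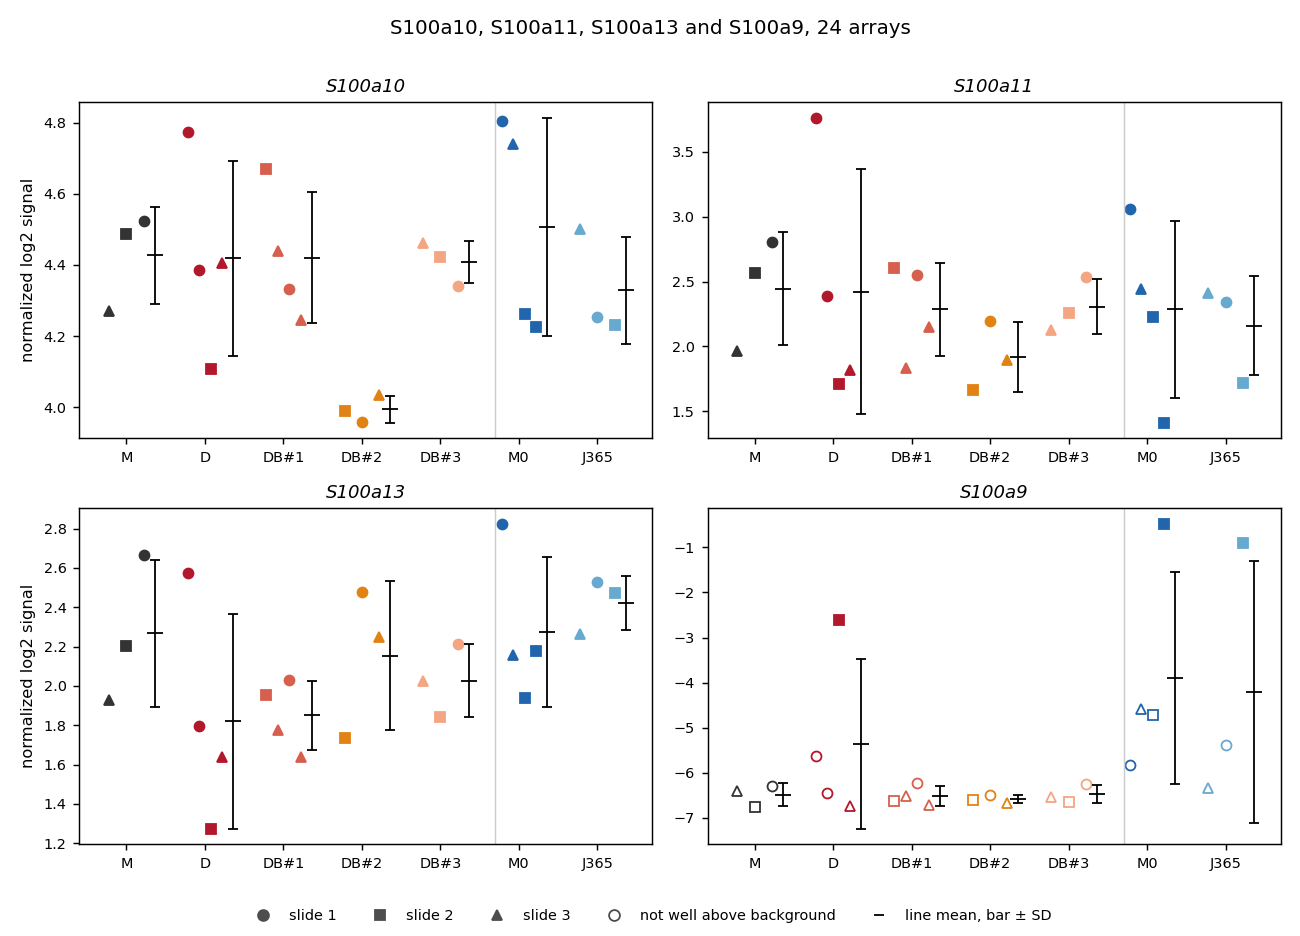
Normalized log2 signal (y axis) of S100a10, S100a11, S100a13 and S100a9 on each of the 24 arrays, by line (x axis); symbols give the slide, open symbols a signal not well above background, and the black mark and bar the line's mean ± SD. S100a10 is lowest in DB#2, at 3.96 to 4.03, and S100a9 rises above background on 3 arrays only, at -0.47, -0.90 and -2.62.

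S100a16, a widely expressed member, had probes that disagreed. The brighter one followed the slide. It gave 0.57 to 1.32 on the 8 arrays of slide 1, 2.58 to 3.30 on slide 2 and 2.43 to 3.11 on slide 3, whatever the line. The dimmer probe did not split the arrays this way, though its slide 1 arrays were the highest within M, D, DB#2 and DB#3. It gave -1.83, -1.35 and -0.85 in M and 0.30, -0.14, -0.75 and -0.59 in D, each D array above each M array. The DB#1 signals were -0.28, -1.01, -0.36 and -0.92 and those of DB#3 -0.34, -0.25 and 0.31. DB#2 overlapped M, with -1.64, -1.34 and -2.17.

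On the myeloid arrays the dimmer probe of S100a16 gave -5.12 to -4.04 and was well above background on 0 of 4 arrays of M0 and 2 of 3 of J365. Used in place of the brighter probe, a choice made after the data were seen, it gave a difference among the melanoma lines (limma F-test, adjusted p = 0.00648). It also gave 1.25 in DB#3 minus M (limma adjusted p = 0.0457) and -1.42 in DB#2 minus D (limma adjusted p = 0.00667). M was at least 6.67-fold higher than M0 on this probe, a bound because no M0 array was well above background. With the brighter probe none of these comparisons passed. The values for S100a16 as a gene are therefore uncertain.

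**Figure D4:**
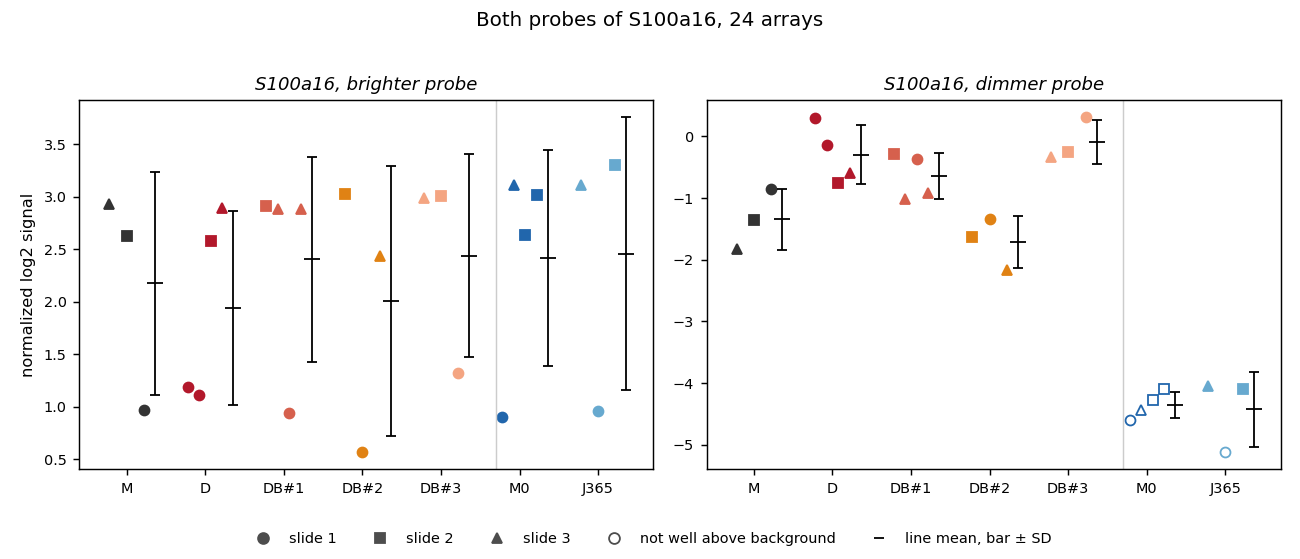
Normalized log2 signal (y axis) of the brighter (left) and dimmer (right) probe of S100a16 on each of the 24 arrays, by line (x axis); symbols give the slide, open symbols a signal not well above background, and the black mark and bar the line's mean ± SD. On the brighter probe all 8 arrays of slide 1 lie at 0.57 to 1.32 and all others at 2.43 or above, while the dimmer probe separates the melanoma lines from the myeloid lines.

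The second model held the myeloid lines, which the labels do not name as dormant or parental. In J365 against M0 none of 7 genes tested was called by limma, against 1.47% of all genes, and S100a4 alone had an unadjusted p under 0.05 (0.025). S100a4 gave 4.81, 5.85, 5.52 and 5.29 in M0 and 6.37, 6.12 and 6.29 in J365, with no overlap, and the difference of 0.89 ± 0.37 did not pass (limma adjusted p = 0.427). S100a6 gave 5.22, 6.46, 6.01 and 5.75 in M0 and 5.04, 5.12 and 5.28 in J365, and the ranges overlapped. Its difference was -0.71 ± 0.67 (limma adjusted p = 0.963). The confidence interval for S100a6 was -2.11 to 0.68 and for S100a1 -0.50 to 0.43.

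The difference between models, D minus M set against J365 minus M0, was called for 1 of 8 genes, against 2.08% of all genes. That gene was S100a6, at 4.38 ± 0.94 (limma adjusted p = 0.0122). Without M replicate 1 it was 3.86 and did not pass (limma adjusted p = 0.0542). Without D replicate 1, S100b (-1.42, limma adjusted p = 0.00644) and S100a1 (-1.24, limma adjusted p = 0.00719) passed as well, although S100b was not above background in either myeloid line.

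M and M0 differed in 4 of 8 genes, a share to be read against the 58.5% of all genes called between these unlike cells. S100b was not well above background on any of the 7 myeloid arrays and was at least 817-fold higher in M than in M0. As a bound, this sets M against the lowest signal that counted as well above background. S100a1 was 2.35-fold higher in M (1.23 ± 0.22, limma adjusted p = 7.52e-05). S100a6 was 302-fold lower (-8.24 ± 0.67, limma adjusted p = 9.8e-10) and S100a4 18.0-fold lower (-4.17 ± 0.37, limma adjusted p = 3.84e-09). S100a10, S100a11 and S100a13 had differences of -0.08, 0.16 and -0.01, the widest confidence interval being -0.69 to 1.01. For S100a10 that is the brighter probe, with means of 4.43 in M and 4.51 in M0. Its dimmer probe lay further apart, at 2.58 ± 0.13 (SD, n = 3) in M and 3.06 ± 0.33 (n = 4) in M0, so S100a10 is uncertain in this comparison. In RNA from whole cultures, fewer cells that express a gene and less RNA per cell cannot be told apart.

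S100a8 and S100a9, the subunits of calprotectin, were at background almost everywhere. S100a8 was well above background on D replicate 3 only (-4.35), and the other 23 arrays gave -6.82 to -4.53. S100a9 was well above background on 3 arrays, D replicate 3 (-2.62), M0 replicate 4 (-0.47) and J365 replicate 4 (-0.90). The other M0 arrays gave -5.83, -4.59 and -4.71 and the other J365 arrays -6.34 and -5.38. Both myeloid arrays with S100a9 are those whose label gives no replicate number. They lie on slide 2, as does D replicate 3. S100a8 was not above background on either of the myeloid arrays.

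The 10 neutrophil and phagocyte markers averaged -2.94 on M0 replicate 4, with 6 of 10 well above background, and -3.07 to -2.79 on the other M0 arrays, with 4 to 6 of 10. On J365 replicate 4 they averaged -3.56 with 5 of 10, and on the other J365 arrays -3.94 and -3.86 with 4 of 10. D replicate 3, by contrast, had 10 of 10 neutrophil markers and 4 of 4 keratinocyte markers well above background, along with 89.9% of all probes. The part of these differences in the S100a8 and S100a9 signals was not tested.

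Among the 6 further S100 genes with a probe, S100a3, S100a5, S100a7a, S100a14, S100g and S100z, none was tested between melanoma lines, as none was well above background on every array of a melanoma line. S100a5 was well above background on all 7 myeloid arrays and on 1 of 17 melanoma arrays, D replicate 3. Its mean was -2.97 ± 0.46 (SD, n = 4) in M0 and -2.56 ± 0.13 (n = 3) in J365, and it was at least 2.50-fold higher in M0 than in M. S100a7a, S100a14, S100g and S100z were above background on 1 melanoma array each, again D replicate 3.

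Genes whose proteins bind S100 proteins were counted in the same comparisons. Between D and M, 0 of 16 binding partners and 0 of 3 receptors tested were called, which with 2.97% of all genes called is near the background. Between M and M0, where 58.5% of all genes were called, 6 partners were higher and 6 lower of 16, and 2 of 3 receptors were higher in M. Anxa2, the partner of S100a10, was at -0.21 ± 0.36, and Ahnak, a scaffold bound by the S100a10 and Anxa2 complex, at -0.09 ± 0.52. Anxa1, the partner of S100a11, was at 0.33 ± 0.29. Cacybp and Anxa11, partners of S100a6, were at 0.21 ± 0.24 and 0.15 ± 0.26. Myh9, the myosin chain bound by S100a4, was at -0.03 ± 0.17. These are log2 differences of D minus M, and all had a limma adjusted p of 0.819 or more.

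In the receptors, 1 of 3 tested was called in J365 against M0, where 1.47% of all genes were. This was Tlr4, which calprotectin can engage, higher in J365 by 1.17 ± 0.22 on the log2 scale (limma adjusted p = 0.00362). Its means were -0.62 ± 0.37 (SD, n = 3) and -1.79 ± 0.37 (n = 4). D minus M was -0.40 ± 0.21 for Tlr4, and the difference between models was -1.57 ± 0.31 (limma adjusted p = 0.00504). In that comparison 1 of 3 receptors was called, against 2.08% of all genes. Bsg, another receptor of S100a9, was at -0.20 ± 0.42 in J365 minus M0 and -0.21 ± 0.42 in D minus M. Among the 16 partners tested, Fgf1 was lower than in M in DB#1 and DB#2, the only partner called in either. All genes were called at 3.69% in DB#1 and 3.44% in DB#2. Capn1 (0.74 ± 0.22, limma adjusted p = 0.0469) and Sugt1 (0.58 ± 0.17, limma adjusted p = 0.0451) were higher in DB#2 than in D. They were 2 of 16 tested, against 6.34% of all genes. Counts this small, near the shares of all genes, do not set the partners apart.

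Other genes followed S100b and S100a6 closely over the 17 melanoma arrays. Of 11871 other named genes marked well above background on all of them, those most like S100b by Pearson's r were Spaca9 (0.977), Plxnc1 (0.975) and Ropn1l (0.974). The line means of Plxnc1 were 2.14 in M and 2.60 in DB#2, against 1.08 in D, 0.90 in DB#1 and 1.17 in DB#3. Most like S100a6 were Uchl1 (0.944), Ptbp2 (0.943) and Adssl1 (0.917). The line means of Adssl1 were -1.30 in M and -0.36 in DB#2, against 1.83 in D, 1.86 in DB#1 and 1.83 in DB#3. The arrays of a line are not independent of each other in such a ranking, and the values describe likeness only.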

How the data were processed

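Total RNA of 7 lines was hybridised to 24 one-colour Agilent mouse arrays, 8 on each of 3 slides. The authors deposited the scanner tables, made with Agilent Feature Extraction 10.7.3.1 per the labels, in which each spot has a background-corrected intensity and, among the other marks, whether it is well above background. The array design refers to mm9, and probes were named by RefSeq accession through GRCm38.p6.

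Spots with an outlier mark and control spots were left out, spots of a probe were averaged, and the log2 intensity minus the array's 75th percentile was used. The brightest probe on average stood for a gene. Lines were compared with limma 3.58.1 (R 4.3.3) on all 24 arrays, 1 term per line, checked first on simulated data. A gene was tested if well above background on every array of at least 1 line compared, with Benjamini-Hochberg adjustment over all genes of a comparison and a threshold of 0.05. The number of arrays limits precision. Named genes were all S100 genes, a list of binding partners and receptors, and the 3 genes most like S100b and like the S100 gene with the widest range. The members and lists were chosen with earlier results of these data known. Of the comparisons with 3 or more same-numbered pairs, all pairs deviated together in DB#1 against M only (correlations of 0.567 to 0.911). The files used held the median and not the mean signal, so normexp background correction, an alternative, used the median. Promoter windows came from RefSeq. One further gene list is not reported here.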

Additional observations from a re-analysis of the deposited data

Results flagged for a closer look

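S100a4 and S100a6 each had D replicate 1 far above the other D arrays, at 3.65 against 1.70 to 1.88 for S100a4 and 3.92 against 0.13 to 0.57 for S100a6. S100a6 in DB#1 had replicate 1 at 2.95 and the others at 1.67 to 1.88. S100a16 in DB#1 had replicate 3, its array on slide 1, at 0.94 and the others at 2.88 to 2.91. These are 4 of 30 groups of 4 arrays examined, where about 1 in 20 is marked by chance if groups are independent. They are not, as the same arrays of D, DB#1 and M0 recur for each gene. D replicate 1 gave both the S100a4 and the S100a6 mark, so the count cannot be set against that rate. The change of S100a6 differed between the melanoma and myeloid models, by 4.38 on the log2 scale.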

How the results depend on the processing

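Several counts of called S100 genes moved with the processing, and the cause was not tested. D against M gave 3 called genes, 2 to 3 with 1 array left out, and 0 with only the arrays of both lines. With only its own arrays, equal in number, DB#1 against M kept 3. The D arrays spread more than the DB#1 arrays, with an SD of 1.76 against 0.60 for S100a6 and 0.63 against 0.10 for S100b. DB#2 against M gave 0, but 1 with quantile normalization, with a percentile taken over detected probes and without scaling. DB#3 against M gave 3, but 1 with a replicate block and 1 to 2 with 1 array left out (1 without M replicate 1). DB#2 against D gave 1, but 3 with quantile normalization and with a percentile of detected probes, 2 with normexp and with slide as a block, and 1 to 2 with 1 array left out (2 without D replicate 1). After seeing the data, leaving out D arrays 1 and 3 and using the dimmer probe were added and gave 2 each. The difference between models gave 1, but 2 with quantile normalization and with normexp, 0 with only the arrays compared, 0 (without M replicate 1) to 3 (without D replicate 1) with 1 array left out, and 3 without D arrays 1 and 3. The F-test over the melanoma lines gave 3, and 3 to 4 with 1 array left out. DB#1 against M kept a count of 3, and DB#1 and DB#3 against D and J365 against M0 a count of 0, in all settings run. M against M0 gave 4, but 5 with the mean over probes and 6 with the dimmer probes of S100a10 and S100a16.

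Over all genes, D against M called 598, but 1083 with slide as a block and 135 with only the arrays of both lines. DB#2 against D called 1310, but 2367 and 300, and DB#1 against M called 765, but 1163 and 970. J365 against M0 called 303, but 539 with quantile normalization and 499 with slide as a block. DB#2 against M called 720, but 1255 without scaling, where the median of all genes moved from 0.02 to 0.25.

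Small differences changed sign. For S100a16, DB#3 minus M went from 0.26 to -0.34 without M replicate 3, -0.013 without DB#3 replicate 3 and -0.022 without DB#3 replicate 4 (0.82 without DB#3 replicate 5). DB#2 minus D went from 0.07 to -0.017 with quantile normalization, -0.021 over detected probes, -0.25 with slide as a block, -0.68 with the mean over probes, -1.42 with the dimmer probe, and -0.19, -0.21, -0.44 and -0.15 without D replicate 1, D replicate 2, DB#2 replicate 1 and DB#2 replicate 3 (0.79 without DB#2 replicate 2). M minus M0 went from -0.24 to 0.012 with a replicate block, 1.38 with the mean over probes, 0.36 without M replicate 3 and 3.01 with the dimmer probe (-0.75 without M0 replicate 1). The values 1.38 and 3.01 use the dimmer probe's signals on M0 arrays, none of them well above background, and are not measured differences. S100a10 in M minus M0 went from -0.08 to 0.060 without scaling and 0.018 without M0 replicate 1 (-0.17 without M0 replicate 4).

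Replicate numbers gave 24 same-numbered pairs whose deviations correlated from -0.79 to 0.91, with 11 over 0.1. All pairs were over 0.1 in 2 of 9 comparisons, DB#1 against M and DB#3 against D (0.21 and 0.71). The pairs that lay on the same slide were at 0.91, 0.61 and 0.85. Beyond DB#3 against M, the replicate block moved no count of called S100 genes. Dim genes, S100a8 and S100a9 among them, are limited by signal over background.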
